A study of Mus musculus with 4 samples.

Results

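Integrins and other adhesion and gut homing molecules were followed as 10 genes chosen by name, out of 24061 gene rows in the raw count table: the integrin α chains Itga4, Itgae, Itgal and Itgav, the β chains Itgb7, Itgb1 and Itgb2, and the non-integrin genes Gpr15, Selplg and Cd44. All 10 were found in the table and passed the filter on low counts, among 13022 genes tested. The cells were effector regulatory T cells sorted from mouse Peyer's patches, which are lymphoid tissue in the wall of the small intestine, and gated as CD4+FoxP3+CD62L-, about 40000 per RNA sample. The mice were C57BL/6 (N5 backcross), 13 weeks old and kept free of specific pathogens, Helicobacter hepaticus among them. Every library came from mice with FoxP3-YFP-cre, a fused Cre recombinase and yellow fluorescent protein made where Foxp3 is transcribed, and so active in regulatory T cells. By title, 2 libraries were Maf+/+ (labelled wt 1 and wt 2) and 2 were Mafflox/flox (labelled flox 1 and flox 2). A Foxp3-driven Cre is designed to delete floxed Maf where Foxp3 is expressed. No label tells whether both libraries of a group come from different animals, so p-values measure the spread between these samples, which may be technical.

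An integrin is a pair of an α and a β chain, each a transmembrane protein, and which α meets which β decides the ligand. α4β7 binds MAdCAM-1 on vessels of the gut and Peyer's patches, αEβ7 (CD103) binds E-cadherin on epithelium, αLβ2 (LFA-1) binds ICAMs, α4β1 binds VCAM-1, and αvβ8 releases active TGF-β from its latent form on regulatory T cells. Gpr15 is a G protein-coupled receptor of large intestinal homing, Selplg encodes PSGL-1, the ligand of selectins, and Cd44 encodes a hyaluronan receptor raised on antigen-experienced T cells.

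Gene totals were 19368745 to 24687897 counts per library, and levels are given as CPM, each gene's share of a library's gene counts at a fixed total, after TMM scaling. Maf, the targeted gene, went with the number in the title and not with the label: 149 and 122 CPM in wt 1 and flox 1, and 1.98 and 0.725 CPM in wt 2 and flox 2. The labels of wt 2 and flox 1 are thus at odds with their Maf counts. Values are therefore set out both by number (wt 1 and flox 1 against wt 2 and flox 2) and by label, no library was moved to another label, and the number is not taken as a genotype. A replicate entry in the labels, rep 1 for both wt and rep 2 for both flox libraries, differs from the title number and was not used. In the authors' deposited table of normalized values, 99.9% of 42472 values matched pseudo-counts recomputed with the libraries grouped by number within a relative tolerance of 1e-05, after 1 factor per library, and 21.9% did with the labelled groups. The defining genes of the sort were present: Foxp3 at 91.0 to 104 CPM, Cd4 at 920 to 998 and Cd3e at 1239 to 1370. Of 6 regulatory T cell markers, 1 was called by number, Ctla4, with 3342 and 3344 CPM in wt 1 and flox 1 against 1627 and 2080 in wt 2 and flox 2 (edgeR quasi-likelihood adjusted p = 0.027; 0.178 without wt 1 and 0.106 without flox 1). Here called means an adjusted p under 0.05, which 1.81% of all genes tested met by number. The 8 listed heat shock genes summed to 9910 CPM in flox 2 and to 3153 to 3774 in the other libraries. In bulk samples such as these, more cells with a transcript and more transcript per cell cannot be told apart.

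For 8 of the 10 genes the highest library was at most 1.37 times the lowest; the factor was 1.95 for Itgav and 2.75 for Itgae. Mean levels ran from 30.0 CPM (Gpr15) to 1149 CPM (Itgb2). Compared per length, as CPM per kilobase of merged GENCODE exons, Itgb7 was highest with a mean of 396 (375 to 422 over the 4 libraries) and Itgb2 next with 376 (358 to 398), and the ranges of both overlapped. Itgae followed with 237 (124 to 341), Selplg with 178 (162 to 193) and Itgal with 167 (155 to 189), and the range of Itgae spans those of Selplg and Itgal. Itgb1 with 39.0 (33.3 to 45.4), Cd44 with 27.4 (24.9 to 30.1), Itga4 with 22.3 (21.2 to 23.1), Gpr15 with 18.3 (15.2 to 20.8) and Itgav with 18.2 (12.2 to 23.7) made up a lower tier. The order depends on the length chosen: per kilobase of the longest coding transcript, Selplg had the highest mean, 409, about level with Itgb7 at 409, and Itga4 had 31.9. On either scale the β7 and β2 chains stood above β1, and the α chains E and L above α4 and αv.

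**Figure D1:**
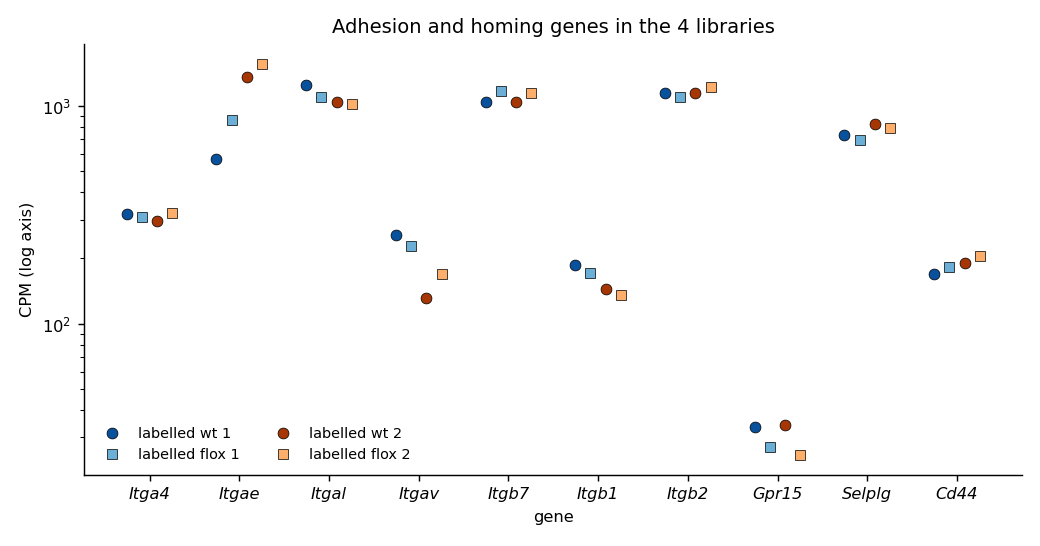
CPM on a log axis for the 10 genes in each library; circles are libraries labelled wt and squares libraries labelled flox, blue for numbered 1 and orange or brown for numbered 2. Itgae lies lower and Itgav higher in both blue libraries, and the 4 points of Itga4 span 296 to 322 CPM.

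**Figure D2:**
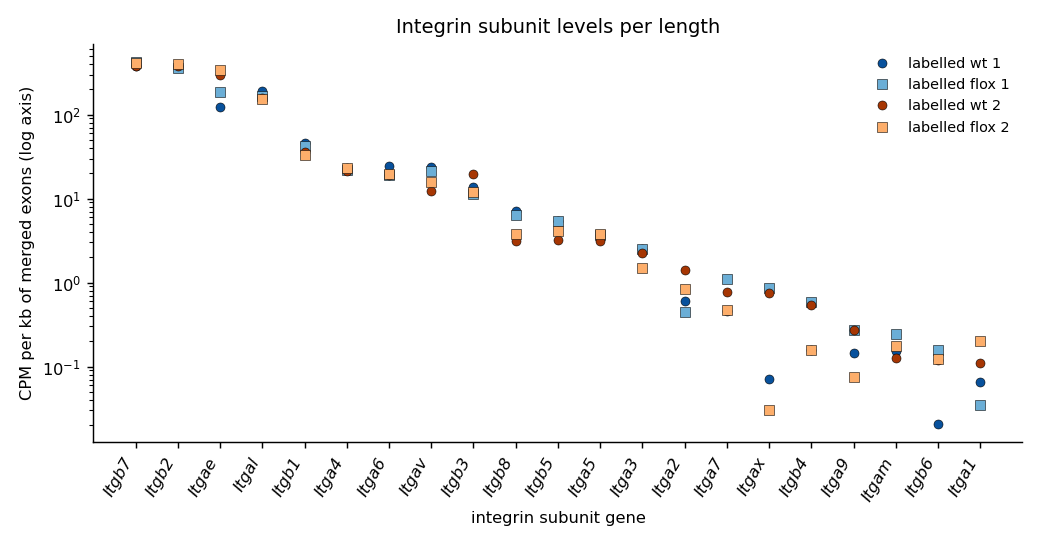
CPM per kilobase of merged exons, on a log axis, for the 21 integrin genes that passed the filter on low counts, ordered by their mean; colours and shapes stand for the 4 libraries. Itgb7, Itgb2, Itgae and Itgal lie above 100 in every library, and Itgb1, Itga4 and Itgav lie between 12.2 and 45.4.

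By number, Itgae differed most of the 10 genes. Itgae encodes the αE chain, which pairs with β7 to hold T cells at epithelium. Itgae had 568 and 860 CPM in wt 1 and flox 1, and 1359 and 1561 CPM in wt 2 and flox 2. Both libraries with high Maf thus lay below both with low Maf, by a factor of 2.39 within label wt and 1.82 within label flox. The fitted log2 difference of numbered 1 minus numbered 2 was -1.03 (SE 0.22), with means of 714 ± 207 and 1460 ± 143 CPM (SD, n = 2). The Benjamini-Hochberg adjusted p of edgeR's quasi-likelihood test was 0.149 (unadjusted p = 0.00704), which misses the threshold of 0.05. DESeq2 called it (adjusted p = 1.97e-06), as did edgeR's likelihood ratio test (adjusted p = 0.00117) and edgeR's quasi-likelihood test with label as a block (adjusted p = 0.02) or without flox 1 (adjusted p = 0.0132, log2 difference -1.36). It was not called by limma-voom (adjusted p = 0.0627), with a CPM of at least 1 in all 4 libraries (0.189) or with no filter on low counts (0.440, edgeR). Nor was it called without wt 1 (adjusted p = 0.140), without wt 2 (0.466) or without flox 2 (0.516, edgeR). A larger absolute log2 difference by number was seen for 6.25% of the genes tested. Cells of the CD8 and natural killer lineages also carry αE, and their 5 markers summed to 54.6 and 60.3 CPM in wt 1 and flox 1, and to 83.6 and 101 in wt 2 and flox 2. Of these, Klrb1c, a natural killer cell receptor, was lower in the libraries numbered 1 (22.6 and 21.3 CPM against 44.9 and 68.5, edgeR quasi-likelihood adjusted p = 0.0368; 0.227 without wt 1, 0.194 without flox 1 and 0.0617 by limma-voom), Cd8a had 8.56 and 11.02 against 5.19 and 9.19 CPM, Cd8b1 had 12.7 and 16.6 against 17.1 and 12.1, Prf1 had 10.7 and 11.3 against 16.4 and 11.4, and Ncr1 had 0 counts in wt 2 and flox 2. The part of such cells in the Itgae values was not tested.

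The β chain of αE showed no such difference. Itgb7, shared by α4β7 and αEβ7, had 1042 and 1168 CPM in wt 1 and flox 1, and 1039 and 1140 CPM in wt 2 and flox 2, so that the groups by number overlapped. Its log2 difference by number was 0.02 (SE 0.09, edgeR quasi-likelihood adjusted p = 0.962). The ratio of Itgae to Itgb7 CPM within a library was therefore 0.545 and 0.736 in wt 1 and flox 1 against 1.31 and 1.37 in wt 2 and flox 2. Itga4, the α chain that makes β7 a receptor for MAdCAM-1, had 319 and 310 CPM in wt 1 and flox 1, and 296 and 322 CPM in wt 2 and flox 2. Its 4 values lay within a factor of 1.09 of each other, the narrowest range of the 10 genes (log2 difference by number 0.02, SE 0.08, edgeR quasi-likelihood adjusted p = 0.947). The ratio of Itga4 to Itgb7 was 0.306 and 0.265 against 0.285 and 0.283. Scaled by library totals alone, the signs of Itga4 and Itgb7 turned (log2 -0.03 for each). Gpr15 had 33.6 and 27.2 CPM in wt 1 and flox 1, and 34.1 and 24.9 in wt 2 and flox 2, which overlap (log2 difference 0.05, SE 0.20, edgeR quasi-likelihood adjusted p = 0.959; -0.01 by library totals alone).

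Itgav, the αv chain of αvβ8 and of vitronectin receptors, lay the other way from Itgae. It had 255 and 227 CPM in wt 1 and flox 1, and 131 and 169 CPM in wt 2 and flox 2. Both libraries numbered 1 were above both numbered 2, 1.95-fold within label wt (95% counting interval 1.86 to 2.05) and 1.34-fold within label flox (1.29 to 1.40). The means were 241 ± 19.9 and 150 ± 27.3 CPM (SD, n = 2), a fitted log2 difference of 0.68 (SE 0.14) that missed the threshold (edgeR quasi-likelihood adjusted p = 0.0855, unadjusted p = 0.00236). It was called without wt 2 (adjusted p = 0.0465, edgeR) and without flox 2 (0.00558, log2 difference 0.88), by DESeq2 (0.000573), by edgeR's likelihood ratio test (0.00233) and with no filter on low counts (0.00695). It was not called without wt 1 (adjusted p = 0.408, edgeR), without flox 1 (0.168), with label as a block (0.129), with a CPM of at least 1 in all 4 libraries (0.0555) or by limma-voom (0.0856). Itgb1, the β chain of α4β1 and of fibronectin and collagen receptors, had 185 and 171 CPM in wt 1 and flox 1, and 144 and 136 CPM in wt 2 and flox 2. The ratio of numbered 1 to numbered 2 was near equal in both labels, 1.28 in wt and 1.26 in flox. The log2 difference of Itgb1 was 0.35 (SE 0.09, edgeR quasi-likelihood adjusted p = 0.146), with a call by DESeq2 (adjusted p = 0.0470). Itgb1 was not called by edgeR's likelihood ratio test (adjusted p = 0.1145), by limma-voom (0.163) or with label as a block (0.172, edgeR). With 1 library left out, its log2 difference was 0.29 to 0.41.

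Among the 19 other integrin genes listed, 14 passed the filter on low counts. Of these, 1 was called by number, higher in numbered 1, with 0 lower, beside 1.81% of all genes. The gene was Itgb8, the β chain that pairs with αv alone. It had 77.8 and 70.5 CPM in wt 1 and flox 1, and 34.9 and 42.0 CPM in wt 2 and flox 2, a 1.93-fold difference (log2 0.95, SE 0.13, edgeR quasi-likelihood adjusted p = 0.0256). Without wt 1 its adjusted p was 0.188, and without flox 1 it was 0.0638, with log2 differences of 0.87 and 1.02. Both chains of αvβ8 thus had higher values in the libraries numbered 1; the Itgb8 difference passed the test and the Itgav difference did not. The ratio of Itgav to Itgb8 CPM was 3.28 and 3.22 in wt 1 and flox 1, and 3.75 and 4.03 in wt 2 and flox 2. Another partner of αv, Itgb3, had 81.6 and 66.8 against 114 and 70.0 CPM and overlapped by number (adjusted p = 0.701, edgeR quasi-likelihood). Itga6, a laminin receptor chain and the most abundant of the other integrins, had 220 and 174 against 174 and 175 CPM. The 5 genes below the filter, Itga2b, Itga8, Itga10, Itga11 and Itgad, had at most 21 counts in any library. The myeloid chains Itgam and Itgax had 0.643 to 1.23 and 0.145 to 4.18 CPM, and 7 myeloid markers, both chains among them, summed to 17.5 and 92.8 CPM in wt 1 and flox 1 and to 58.7 and 56.4 in wt 2 and flox 2.

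Promoter letters are shown for Itgav and Itgb8, whose values both lay higher in the libraries numbered 1, and for Gpr15, whose values overlapped. They are the 250 bases before the start of transcription, on the gene's strand, from RefSeq (GRCm38.p6, the assembly of mm10), where 6 of the 10 genes had an entry. RefSeq's start lies inside the GENCODE span for Gpr15, Itgb8 and Itgb7. The whole window of Itgb8 and part of those of Gpr15 and Itgb7 thus lie within the gene as GENCODE draws it. Lower case letters are sequence without a match, and capitals mark a match to one of 3 searched motifs, looked for on both strands: TGCTGA, the half-site of the MAF recognition element; TGANTCA, the AP-1 motif; and TATAAA, the TATA box. A TGCTGA can overlap a TGANTCA where both join.
Itgav, chr2:83724147-83724396, plus strand: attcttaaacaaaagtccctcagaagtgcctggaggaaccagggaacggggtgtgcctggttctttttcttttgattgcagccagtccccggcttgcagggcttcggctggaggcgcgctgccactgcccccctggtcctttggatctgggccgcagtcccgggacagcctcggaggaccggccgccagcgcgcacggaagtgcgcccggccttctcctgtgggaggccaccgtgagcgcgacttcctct
Itgb8, chr12:119238277-119238526, minus strand: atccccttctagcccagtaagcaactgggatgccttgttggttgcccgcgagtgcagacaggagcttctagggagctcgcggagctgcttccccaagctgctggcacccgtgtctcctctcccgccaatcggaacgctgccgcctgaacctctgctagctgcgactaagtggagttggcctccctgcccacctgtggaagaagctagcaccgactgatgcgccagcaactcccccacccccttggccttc
Gpr15, chr16:58718873-58719122, minus strand: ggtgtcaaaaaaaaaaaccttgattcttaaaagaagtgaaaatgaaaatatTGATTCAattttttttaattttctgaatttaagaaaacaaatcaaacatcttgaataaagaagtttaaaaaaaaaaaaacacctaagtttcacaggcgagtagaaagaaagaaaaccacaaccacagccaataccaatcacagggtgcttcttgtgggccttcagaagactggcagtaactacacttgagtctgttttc
Across 32851 promoter windows of this length, 16.1% held TGCTGA, 6.75% held TGANTCA and 12.4% held TATAAA. Neither Itgav nor Itgb8 held any of the 3 motifs in its window, and neither did Itga4, Itgb7, Itgb1 or Cd44. Gpr15 held 1 TGANTCA match, whose first letter lies 199 bases before the start. The windows of Itgav and Itgb8 were 64.4% and 62.4% G or C, that of Gpr15 31.6%.

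The leukocyte integrin αLβ2 and the remaining adhesion genes differed by small factors. Itgal had 1240 and 1093 CPM in wt 1 and flox 1, and 1041 and 1020 CPM in wt 2 and flox 2, a log2 difference of 0.18 (SE 0.08, edgeR quasi-likelihood adjusted p = 0.439). Its partner Itgb2, common to all β2 integrins, had 1143 and 1092 against 1147 and 1214 CPM (log2 difference -0.08, SE 0.07, adjusted p = 0.726). Values of Itgal were thus higher and those of Itgb2 lower in both libraries numbered 1, though wt 1 and wt 2 differed by less than the counting error for Itgb2 (ratio 0.997, 95% interval 0.979 to 1.02). Selplg had 732 and 694 CPM in wt 1 and flox 1, and 824 and 788 CPM in wt 2 and flox 2. The ratio of numbered 1 to numbered 2 was 0.889 in wt and 0.880 in flox (log2 difference -0.18, SE 0.08, edgeR quasi-likelihood adjusted p = 0.380). Cd44 had 169 and 182 against 189 and 204 CPM, a ratio of 0.892 in each label (log2 difference -0.17, SE 0.09, adjusted p = 0.498). For both genes the groups by number did not overlap, and the difference was not past the threshold.

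**Figure D3:**
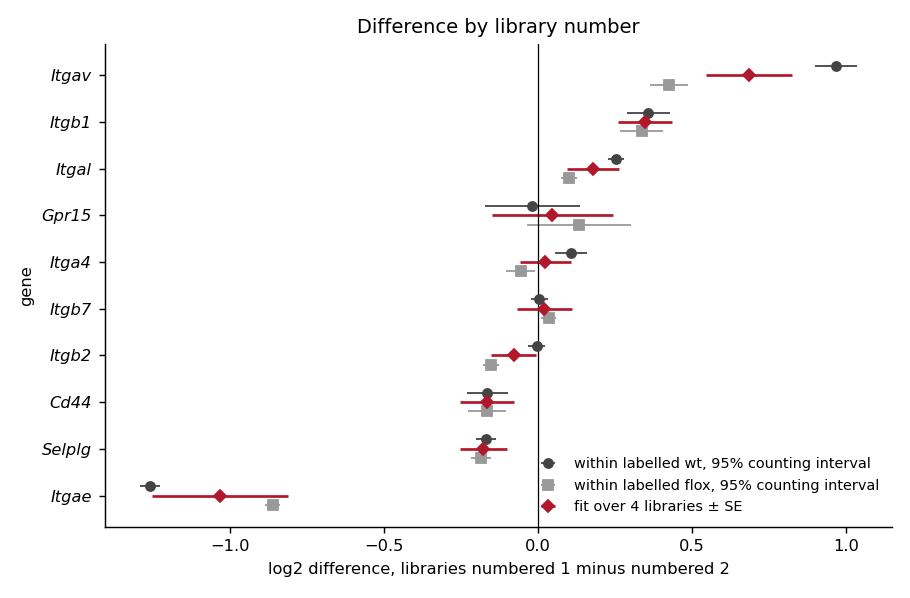
Log2 difference of libraries numbered 1 minus numbered 2 for the 10 genes, sorted. Black circles and grey squares are the single ratios within label wt and within label flox with 95% counting intervals, and red diamonds are the fit over 4 libraries with its SE. Itgav and Itgb1 lie to the right and Itgae far to the left in both labels, and Itgb7, Itga4 and Gpr15 lie near 0.

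Counted over the 10 genes, 0 were called by edgeR's quasi-likelihood fit by number, beside 1.81% of all genes tested (236 of 13022): 184 higher (1.41%) and 52 lower (0.399%) in numbered 1. With label as a block it called 1 of the 10, Itgae, beside 1.63% of all genes. At an unadjusted p under 0.05 there were 3 of the 10, Itgav, Itgb1 and Itgae, beside 13.6% of all genes. DESeq2 called 3 of the 10 (4.91% of all genes), the likelihood ratio test 2 (4.67%) and limma-voom 0. Groups by number did not overlap for 7 of the 10, beside 45.2% of all genes: 3 lay above (Itgav, Itgb1, Itgal), beside 22.5%, and 4 below (Itgae, Itgb2, Selplg, Cd44), beside 22.7%. The median absolute log2 difference was 0.17 for the 10 genes and 0.18 for all genes tested, so that by this measure the 10 lay close to the background. With 2 libraries against 2, an exact two-sided permutation test of 1 gene cannot go below p = 0.333, and none was run.

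**Figure D4:**
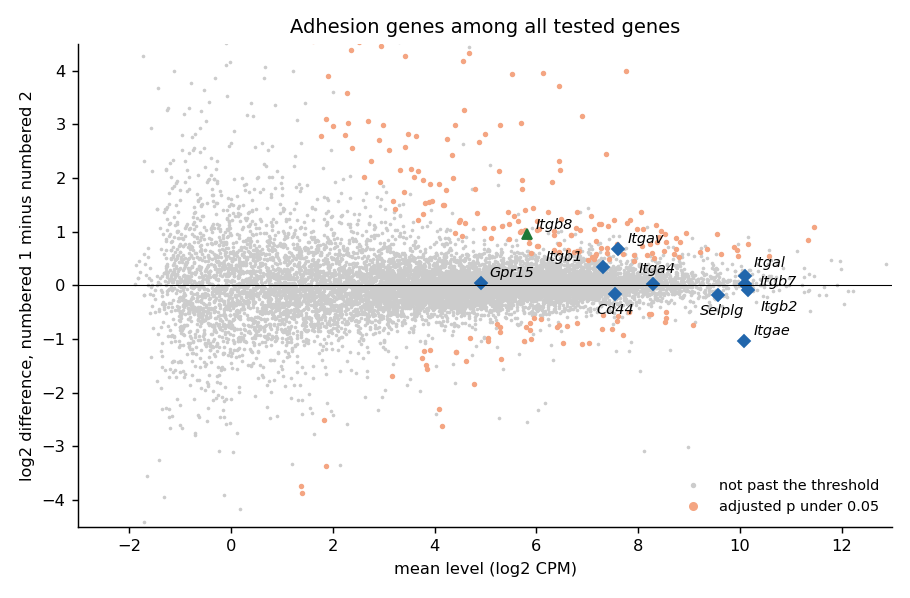
Mean level (log2 CPM) against the log2 difference of numbered 1 minus numbered 2 for all tested genes; orange points passed an adjusted p of 0.05, blue diamonds are the 10 genes and the green triangle is Itgb8. Itgae and Itgav sit at the edge of the cloud for their level, Itgb8 is among the called genes, and 43 genes lie outside the axes.

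By label, the comparison the series states, 0 of the 10 genes were called by edgeR (quasi-likelihood), beside 0.00768% of all genes (1 of 13022). The other tests run (DESeq2, limma-voom and the likelihood ratio test) also called 0 of the 10. Gpr15 was the 1 gene of the 10 with an unadjusted p under 0.05 (0.0375, beside 1.98% of all genes), with 33.6 and 34.1 CPM in the libraries labelled wt and 27.2 and 24.9 in those labelled flox. Its log2 difference of labelled flox minus labelled wt was -0.38 (SE 0.14, adjusted p = 1 by edgeR), and both flox libraries lay below both wt libraries. Itgb7 had 1042 and 1039 CPM in labelled wt and 1168 and 1140 in labelled flox, with flox above wt (log2 difference 0.15, SE 0.11, adjusted p = 1 by edgeR). These were the 2 genes of the 10 whose labelled groups did not overlap, 1 above and 1 below, where 27% of all genes did not overlap (13.2% above and 13.8% below). For Itgae the label means were 963 ± 559 CPM (wt) and 1211 ± 496 CPM (flox), each with its SD over n = 2, and for Itgav 193 ± 88.0 and 198 ± 40.8, so that the spread within a label exceeded the difference between labels for both. Each direction here is between labels and not between Maf levels.

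Of 27 tested genes of integrin activation and linkage to actin, 1 was called higher in numbered 1 and 0 lower, beside 1.81% of all genes; the list's median log2 difference was 0.01, and that of all genes was -0.01. The called gene was Flna, filamin A, an actin crosslinker that binds β tails, with 486 and 519 CPM in wt 1 and flox 1 and 311 and 355 in wt 2 and flox 2 (log2 0.59, SE 0.09, edgeR quasi-likelihood adjusted p = 0.0382; 0.202 without wt 1 and 0.206 without flox 1). Tln1, talin, which binds β tails and switches integrins on, had 909 and 822 against 774 and 860 CPM. Rap1b, the small GTPase upstream of talin, had 861 and 834 against 699 and 750 CPM (adjusted p = 0.264 by edgeR).

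Of 12 tested ligand genes 0 were called by edgeR, beside 1.81% of all genes. An unadjusted p under 0.05 was seen for 1, beside 13.6% of all genes, and the list's median log2 difference was 0.17. Lrrc32, which encodes GARP, the carrier of latent TGF-β on which αvβ8 acts, had 829 and 752 CPM in wt 1 and flox 1 and 541 and 971 in wt 2 and flox 2. Icam1, a ligand of LFA-1, had 212 and 266 against 200 and 203 CPM. Among 18 genes that modify, anchor or cleave PSGL-1 and CD44, 1 was called, beside 1.81% of all genes: Mmp9, a secreted matrix protease. Mmp9 had 40.6 and 48.4 CPM in wt 1 and flox 1 and 3.26 and 1.64 in wt 2 and flox 2 (log2 4.18, SE 0.31, edgeR quasi-likelihood adjusted p = 0.00423), and it stayed called without any 1 library (adjusted p from 0.000234 to 0.0255). The anchoring proteins Msn and Ezr had 1760 and 1610 against 1666 and 1683 CPM, and 663 and 688 against 566 and 610 CPM, and neither passed (adjusted p = 0.979 and 0.340, edgeR). The sign of Msn turned under other scalings.

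Of 21 other adhesion genes, 1 was called higher and 1 lower in numbered 1, beside 1.41% and 0.399% of all genes. An unadjusted edgeR quasi-likelihood p under 0.05 was seen for 7, beside 13.6% of all genes. Both libraries numbered 1 lay above both numbered 2 for 2 and below for 11, beside 22.5% and 22.7%. Nt5e, which encodes the adenosine-forming ectoenzyme CD73, had 1518 and 1374 CPM in wt 1 and flox 1 and 750 and 940 in wt 2 and flox 2 (log2 0.78, SE 0.12, edgeR quasi-likelihood adjusted p = 0.0380; 0.255 without wt 1 and 0.0978 without flox 1). Cd81, a tetraspanin, had 126 and 132 against 181 and 195 CPM (log2 -0.55, SE 0.09, adjusted p = 0.0371; 0.303 without wt 1 and 0.171 without flox 1). With label as a block, neither was called (adjusted p = 0.0744 and 0.0555). Cd6, a receptor for ALCAM, had 1075 and 1203 against 1426 and 1399 CPM, and the tetraspanin Cd53 had 1233 and 1170 against 1254 and 1238, both not past the threshold (adjusted p = 0.154 and 0.822, edgeR).

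Among 16 tested chemoattractant receptors, which steer migrating cells, Ccr2 and Cxcr5 were called higher and Cxcr3 lower in numbered 1. An unadjusted edgeR quasi-likelihood p under 0.05 was seen for 7 of the 16, beside 13.6% of all genes. Both libraries numbered 1 lay above both numbered 2 for 8 and below for 2, beside 22.5% and 22.7%. Ccr2 had 165 and 159 CPM in wt 1 and flox 1 and 14.7 and 9.87 in wt 2 and flox 2 (log2 3.72, SE 0.19, edgeR quasi-likelihood adjusted p = 0.00116). Cxcr5, the receptor for entry into follicles, was higher as well (1.30, SE 0.16, adjusted p = 0.0170; 0.109 without wt 1). Cxcr3, a receptor of type 1 responses, had 69.1 and 56.7 against 114 and 101 CPM (-0.77, SE 0.13, adjusted p = 0.0440; 0.106 without wt 1, 0.176 without flox 1 and 0.0525 by limma-voom). Ccr9, a receptor for homing to the small intestine that was picked with its values known, had 228 and 270 CPM in wt 1 and flox 1 and 167 and 134 in wt 2 and flox 2, which did not pass (log2 0.73, adjusted p = 0.0683, edgeR). Ccr7 had 1275 and 1053 against 708 and 1211 CPM, and Gpr183 had 369 and 336 against 299 and 367.

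Of 21 tested regulators of homing and adhesion genes, 2 were called higher in numbered 1 and 0 lower, beside 1.41% and 0.399% of all genes. The list's median log2 difference was 0.23 beside -0.01 for all genes. An unadjusted edgeR quasi-likelihood p under 0.05 was seen for 12 of the 21, beside 13.6% of all genes. Both libraries numbered 1 lay above both numbered 2 for 16 and below for 2, beside 22.5% and 22.7%. The list was chosen with earlier results of these data known. Rara, a receptor for retinoic acid, the vitamin A product that imprints gut homing, had 72.9 and 71.2 CPM in wt 1 and flox 1 and 48.6 and 45.9 in wt 2 and flox 2 (log2 0.61, SE 0.10, edgeR quasi-likelihood adjusted p = 0.0429; 0.328 without wt 1 and 0.200 without flox 1). Skil, a repressor of SMAD proteins, had 546 and 503 against 347 and 383 CPM (0.52, SE 0.09, adjusted p = 0.0488; 0.375 without wt 1 and 0.155 without flox 1). With label as a block neither passed (adjusted p = 0.0712 for Rara and 0.0896 for Skil), and limma-voom called neither (0.0525 and 0.0533). Skil also failed under RLE scaling (0.0503), and Rara by library totals alone (0.0709). Tcf7 and Foxo1, the most abundant of this list, had 841 and 709 against 625 and 461 CPM, and 691 and 688 against 558 and 543 CPM, without passing (adjusted p = 0.264 and 0.103). Runx3 and Smad3, which act on Itgae in T cells and were named after their values were seen, had 82.2 and 72.0 against 100 and 132 CPM, and 113 and 90.9 against 78.0 and 69.3 CPM, also without passing (adjusted p = 0.149 and 0.184, edgeR).

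Genes with the profile most like a member were sought among 8729 candidates (mean log2 CPM 3 or more), by the root mean square difference of centred log2 CPM over the 4 libraries. Nearest to Itgav were Chd7 (0.013, a chromatin remodeller), Hif1a (0.027) and Irf4 (0.036), transcription factors of hypoxia and of effector lymphocytes. Hif1a had 1932 and 1793 CPM in wt 1 and flox 1 and 1040 and 1319 in wt 2 and flox 2, and Irf4 had 183 and 152 against 91.7 and 117. Nearest to Itgb1 were P2rx4 (0.013), Add3 (0.016) and Zmym5 (0.017). For Itgae, added after its values were seen, the nearest were farther away: Ctla2b (0.122), Gpr34 (0.142) and Mctp2 (0.144). The distance was not scaled to a member's own log2 range over the 4 libraries, which was 1.46 for Itgae, 0.965 for Itgav and 0.448 for Itgb1. Gpr34, a lysophospholipid receptor, had 20.3 and 24.1 CPM against 43.3 and 44.3. With 4 libraries and this many candidates, such likeness is a description only.

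In the annotation, each of the 10 genes is a protein-coding gene, with mm10 positions as follows. Itgae spans chromosome 11, 73090583 to 73147446, Itgav chromosome 2, 83724397 to 83806916, and Itga4 chromosome 2, 79255426 to 79333123. Itgal spans chromosome 7, 127296260 to 127335138, Itgb7 chromosome 15, 102215995 to 102231944, Itgb1 chromosome 8, 128685654 to 128733200, and Itgb2 chromosome 10, 77530252 to 77565708. Gpr15 spans chromosome 16, 58717433 to 58719070, Selplg chromosome 5, 113818536 to 113832644, and Cd44 chromosome 2, 102811141 to 102901665. A protein-coding gene on the other strand overlaps the span of Itgae (Haspin, 2810 bases), Itga4 (Cerkl, 2581 bases) and Gpr15 (Cpox, 204 bases). The span of Itgav is overlapped on the other strand by the noncoding transcript Gm13684 (22084 bases) and the pseudogene Dnmt3l-ps1 (1253 bases), and that of Cd44 by the small nuclear RNA Gm23731 (107 bases). Whether the counting used strand is not given in the sources used here, so reads from those stretches may be uncertain.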

How the data were processed

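Libraries were prepared from RNA of sorted cells with a Clontech low-input kit, per the labels' protocols. The submitters' processing notes list mm10, edgeR 3.14, HTSeq 0.6.1 and TopHat2 2.1.1. Their settings, strand use and annotation were not given in the sources read. Raw counts were deposited by the authors per gene symbol (24061 gene rows, with 5 counter summary rows, 66.6% to 67.2% of a column, left out), with a filtered table of normalized values, a signal whose method no header states, which was used only for a comparison with recomputed pseudo-counts. Libraries were grouped by title.

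Counts were fitted over all genes in R 4.3.3 with edgeR 4.0.16: filterByExpr, TMM, glmQLFit (robust) and glmQLFTest, once by title number and once by label, at 0.05 after Benjamini-Hochberg adjustment. The SE is the log2 difference over the root of F. Alternatives were DESeq2 1.42.0, limma-voom (limma 3.58.1), the likelihood ratio test, other scalings and filters, a block and leaving out each library. Tests were first run on simulated counts, drawn with dispersions fitted to these same libraries. Such counts cannot show whether the calls hold for the real data. Counting intervals are exact binomial ones of 2 counts at 95% and cover counting error only. Lengths and positions come from GENCODE M21 (mm10).

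The 10 genes and the gene lists were chosen with earlier results of these data known. Named genes were the 10, Maf, sort checks, called list genes (up to 6 a list), the 2 most abundant of each list, and the 3 genes most like the 2 members with the smallest p by number. Some genes that this rule names are not reported here.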

Additional observations from a re-analysis of the deposited data

Results flagged for a closer look

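Some named genes differed by number in opposite directions in the 2 labels, or by label in opposite directions at the 2 numbers. Each such effect is 1 library against 1, so the difference was not tested. Among the 10 genes, the log2 difference by number in flox minus that in wt was -0.16 for Itga4 (0.11 in wt and -0.06 in flox) and 0.15 for Gpr15 (-0.02 and 0.13). The log2 difference by label at number 2 minus that at number 1 was 0.54 for Itgav (-0.17 at number 1 and 0.37 at number 2), 0.16 for Itga4 and 0.15 for Itgb2. For Itgav the ratio of flox to wt was 0.890 at number 1 (95% counting interval 0.857 to 0.924) and 1.29 at number 2 (1.23 to 1.36), so both lay beyond counting error.

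Among the other named genes, the same difference of differences by number was negative for Cd3e (-0.17), Itga6 (-0.35), Tln1 (-0.30), Lrrc32 (-0.99), Msn (-0.14), Ccr7 (-1.05), Gpr183 (-0.44) and Hspa8 (-1.04). It was positive for Cd79b (0.66), Cd79a (2.85), Cd8b1 (0.88), Lyz2 (3.01), Epcam (0.93), Krt8 (2.41), Pecam1 (0.43) and Col1a1 (0.97). The latter are markers of B cells, CD8 T cells, myeloid cells, epithelium and stroma.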

How the results depend on the processing

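Only 2 libraries per group limit every comparison, and with 1 library left out the lone library of a group is assumed to vary like the others. By number, 236 genes were called, against 640 by DESeq2, 608 by the likelihood ratio test, 589 with no filter on low counts and 46 to 525 without 1 library (46 without wt 1, 525 without wt 2, 116 without flox 1, 504 without flox 2). The share higher in numbered 1 was 78% (68.4% with no filter). Of the 10 genes, DESeq2 called 3, the likelihood ratio test 2, the test with no filter 1, the block fit 1, and the fits without 1 library 0 to 1. By label 1 gene was called, against 12 by DESeq2, 12 by the likelihood ratio test, 2 with no filter, 0 by limma-voom, 0 with a CPM of at least 1 in all 4 libraries and 0 without any 1 library. Same-numbered libraries share only a number in the titles. Their deviations from the label means correlated with r = 0.235 over 13022 genes, and with the number as a replicate block 1 gene was called by label. With label as the block, 212 genes were called by number.

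The sign by number turned with upper quartile scaling for Msn -0.0076 and Cd8b1 -0.0066, and with library totals for Itga4 -0.030, Itgb7 -0.032, Gpr15 -0.015, Cd3e -0.0078, Msn -0.046, Cd8b1 -0.051 and Pecam1 -0.0095; by label it turned with library totals for Itgb2 -0.015. Scaling by library totals moved the median of all genes to -0.06. Leaving out 1 library turned the sign by number for these genes, given as lowest to highest log2 difference: Itga4 -0.040 to 0.083, Itgb7 -0.061 to 0.098, Gpr15 -0.17 to 0.29, Cd3e -0.029 to 0.12, Itga6 -0.0073 to 0.34, Itgb3 -0.63 to 0.079, Lrrc32 -0.30 to 0.55, Msn -0.059 to 0.076, Ccr7 -0.062 to 0.72, Gpr183 -0.064 to 0.24, Hspa8 -0.97 to 0.25, Hsp90aa1 -1.20 to 0.12, Cd79b -0.29 to 0.34, Cd8b1 -0.22 to 0.28, Lyz2 -2.39 to 0.67, Krt8 -1.27 to 0.44, Pecam1 -0.13 to 0.24 and Col1a1 -0.079 to 0.70. By label it did so for Itga4 -0.0087 to 0.092, Itgae -0.17 to 1.10, Itgb1 -0.28 to 0.087, Itgal -0.23 to 0.020, Itgb2 -0.067 to 0.086, Itgav -0.36 to 0.60 and Selplg -0.16 to 0.022. The cause was not tested.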
